A study of Mus musculus with 4 samples.

Results

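The ADAM and ADAMTS proteases described here are 10 genes chosen by name, Adam8, Adam9, Adam10, Adam12, Adam15, Adam17, Adam19, Adamts1, Adamts4 and Adamts5, out of 27670 gene names on the array. They were read in 4TO7, a line of mouse mammary tumour cells whose strain is labelled BALB/cfC3H. The tested cells stably carried the retroviral vector pMSCV with the microRNA cluster miR-23b/27b/24, and the control cells stably carried pMSCV-puro alone. Both lines therefore had the pMSCV backbone, and the labels give no age, agent or further allele. Each group had 2 arrays, called transfection replicates in the series. Total RNA of the cells carried Cy5, and every array set it against Cy3-labelled Universal Mouse Reference RNA, which pools 11 mouse lines. A level below is a log2 ratio of Cy5 over Cy3, that is, of the cells over the reference mix. A difference is the log2 fold change of miR-23b/27b/24 cells over vector cells.

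ADAM proteins are membrane-anchored metalloproteases with a disintegrin domain, and the active ones cut the extracellular part off other membrane proteins, a step called ectodomain shedding. Growth factors, cytokines, adhesion molecules and Notch receptors are among the proteins released or primed in this way. ADAMTS proteins carry thrombospondin repeats instead of a membrane anchor, are secreted, and cut matrix molecules such as aggrecan, versican and thrombospondin. In the mammary gland, Adam17 is known for the release of the growth factor amphiregulin during duct growth.

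The mature sequences of the transduced microRNAs show which stretch each one pairs with in a target. They are credited to RefSeq on GRCm38.p6, and the capitals mark the seed, bases 2 to 8. mmu-miR-27b-3p lies at chr13:63300760-63300780 and mmu-miR-24-3p at chr13:63301251-63301272, both on the plus strand, and the cluster also holds miR-23b.

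mmu-miR-27b-3p: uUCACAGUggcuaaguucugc
mmu-miR-24-3p: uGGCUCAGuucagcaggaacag

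The seeds of these sequences differ. The letters complementary to the miR-27b-3p seed, ACTGTGA, were in 340 of 41174 array probes (0.826%), and those complementary to the miR-24-3p seed, CTGAGCC, in 173 (0.42%), read on the strand of the probe. None of the 17 probes of the proteases held either one (0 of 17 for each). A probe is a short stretch of a transcript, so the count describes these stretches alone.

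Between 69.9% and 74.8% of the 41174 probes were well above background in Cy5 on an array, and 20515 genes passed the filter. Across genes, which are not independent replicates, log2 ratios correlated at 0.952 between the miR-23b/27b/24 arrays, at 0.887 between the vector arrays and at 0.629 to 0.725 between arrays of the 2 groups. Replicates differed with an SD over genes of 0.257 in the miR-23b/27b/24 group and 0.413 in the vector group. Of 8 mammary epithelial markers, 7 were well above background on both miR-23b/27b/24 arrays and all 8 on both vector arrays. The pan-leukocyte gene Ptprc lay between -5.82 and -5.72 on the 4 arrays, far below the reference mix.

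The comparison asked which of the proteases differ in cells that overexpress the cluster. Adam15 rose and Adam19 fell. The other 7 measured genes did not pass the test, and Adam12 was not well above background on any array. By limma's moderated test with Benjamini-Hochberg adjusted p under 0.05 over all genes, 1 of 9 measured proteases was called higher and 1 of 9 lower, against 4.78% and 4.66% of all genes. With a list of this length, 1 gene is 11.1%. The median difference of the 9 genes was -0.07, beside -0.03 for all genes. Unadjusted p was under 0.05 for 5 of the 9 and for 5687 of all 20515 genes. For 6 of the 9 proteases the groups' arrays stood clear of each other, against 59.8% of all genes, a share near that background. In these samples, fewer cells of a type and less RNA per cell cannot be told apart.

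**Figure D1:**
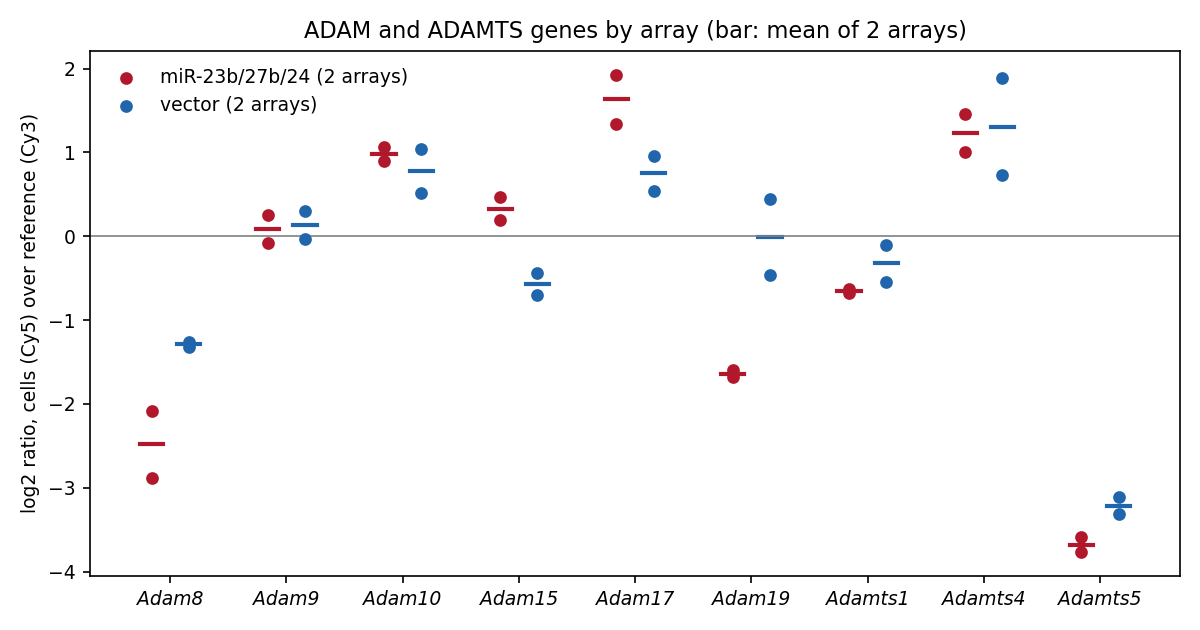
Log2 ratio of cells (Cy5) over reference RNA (Cy3) for the 9 measured proteases, with a point per array and a bar at the mean of 2 arrays, miR-23b/27b/24 in red and vector in blue. The groups lie apart for Adam8, Adam15, Adam17, Adam19, Adamts1 and Adamts5, and overlap for Adam9, Adam10 and Adamts4.

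The general sheddases Adam10 and Adam17 both stood above the reference mix on every array. Adam17, known as TACE, releases tumour necrosis factor and ligands of the EGF receptor from the cell surface. Its brighter probe read 1.93 and 1.34 in miR-23b/27b/24 cells, against 0.96 and 0.54 in vector cells. The other probe, close by on chromosome 12, read 1.70 and 1.25 in miR-23b/27b/24 cells, against 0.78 and 0.41 in vector cells. On both probes each miR-23b/27b/24 array was above each vector array. The difference was 0.88 ± 0.26 (95% interval 0.21 to 1.56 with the SE from n = 2 a group), a ratio of 1.84, and did not pass (limma adjusted p = 0.106). The second probe gave 0.88 ± 0.22, also not called over all probes (limma adjusted p = 0.070). Adam17 was called in 2 of 16 alternative settings, without vector replicate 1 (1.09, limma adjusted p = 0.0469) and with a replicate block (limma adjusted p = 0.0419), and its difference ran from 0.59 to 1.18 over all 16. It was lowest, at 0.59, without miR-23b/27b/24 replicate 1, and was 1.18 without replicate 2 of that group.

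Adam10 is the alpha-secretase that starts the cleavage of Notch receptors and of the amyloid precursor protein. It read 0.90 and 1.06 in miR-23b/27b/24 cells, against 1.04 and 0.52 in vector cells, so the groups overlapped. The difference was 0.20 ± 0.21 (95% interval -0.34 to 0.75 with the SE from n = 2 a group, limma adjusted p = 0.597). The interval runs from a small fall to a rise that lies below the estimate for Adam17. With every local background as measured the Adam10 difference was 0.69, also not called (limma adjusted p = 0.0837).

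Adam15, Adam9 and Adam12 are members whose proteins can also bind integrins through the disintegrin domain. Adam15, or metargidin, was the one protease called higher. Its brighter probe read 0.47 and 0.19 in miR-23b/27b/24 cells, against -0.44 and -0.70 in vector cells. The other probe read 0.56 and 0.54 in miR-23b/27b/24 cells, against -0.52 and -0.23 in vector cells. All miR-23b/27b/24 values lay above the reference mix and all vector values below it, on both probes. The difference was 0.90 ± 0.17 (95% interval 0.46 to 1.33 with the SE from n = 2 a group), a 1.87-fold rise (limma adjusted p = 0.0418).

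The second Adam15 probe gave 0.92 ± 0.15, called over all probes (limma adjusted p = 0.0289). Of the 14 protease probes above background, 3 were called, both Adam15 probes and 1 of Adam19, against 9.87% of all probes. The second Adam15 probe is shown because its 60 bases span 200 bases of the genome, at chr3:89470617-89470816 on the minus strand in mm7, the build in the file headers, while the brighter probe lies further along the transcript at chr3:89466430-89466489. The 2 probes thus read separate stretches of the transcript and gave like differences. The sequence is printed as the file holds it, 5′ to 3′.

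Adam15 probe A_52_P362670: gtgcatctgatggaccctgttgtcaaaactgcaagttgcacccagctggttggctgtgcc

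The call of Adam15 was near the threshold. It held in 8 of 16 alternative settings, with the difference between 0.76 and 1.04 and the adjusted p between 0.0183 and 0.257. It was lost without vector replicate 2 (0.77, limma adjusted p = 0.0517), without miR-23b/27b/24 replicate 1 (0.76, limma adjusted p = 0.257) and without miR-23b/27b/24 replicate 2 (1.04, limma adjusted p = 0.144). With all 4 arrays it was also lost with every local background as measured (limma adjusted p = 0.0842) and with median centring (limma adjusted p = 0.0708). The same held for Feature Extraction signals (limma adjusted p = 0.0507), its log ratio (limma adjusted p = 0.0523) and the deposited table (limma adjusted p = 0.0524). The sign was the same in all 16.

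Adam9, or meltrin gamma, which many epithelial and tumour cells make, was close to the reference mix. It read -0.09 and 0.26 in miR-23b/27b/24 cells, against 0.30 and -0.03 in vector cells. The groups overlapped fully, and the difference was -0.05 ± 0.19 (95% interval -0.55 to 0.45 with the SE from n = 2 a group, limma adjusted p = 0.894). Adam12, known as meltrin alpha for its part in muscle cell fusion, has 2 probes, and neither was well above background on any of the 4 arrays. Without the filter on dim probes its difference was 0.02 (95% interval -0.27 to 0.30, limma adjusted p = 0.962), which compares signals at background.

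**Figure D2:**
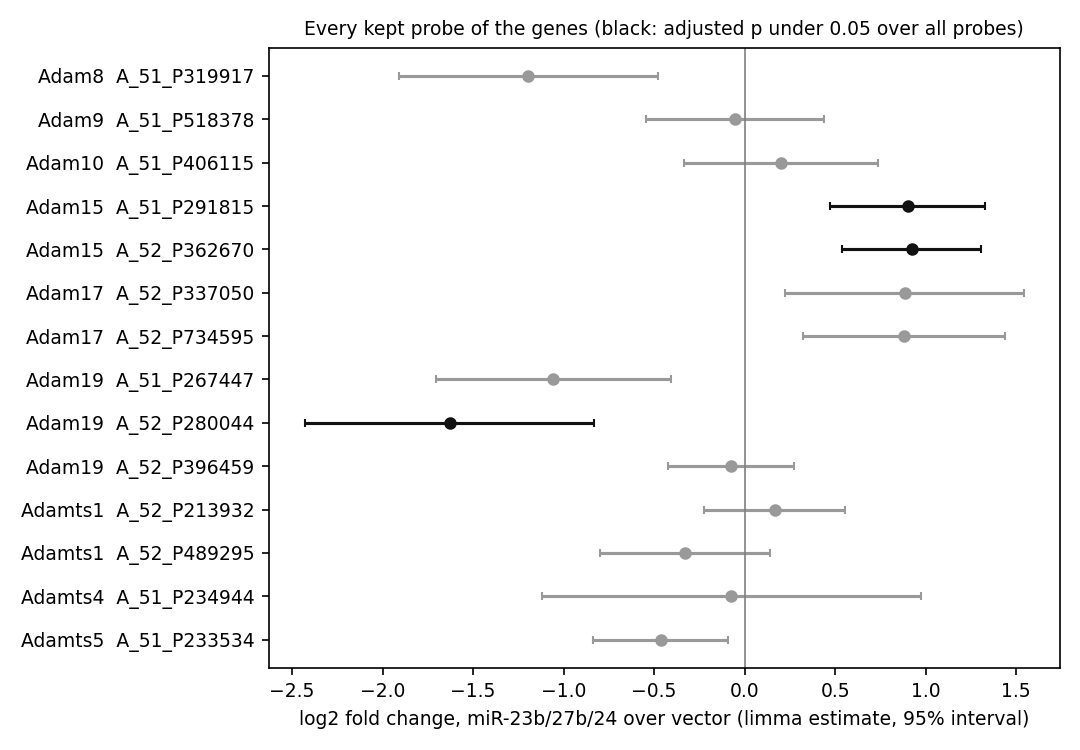
Log2 fold change of miR-23b/27b/24 over vector cells for the 14 protease probes that passed the filter, with the 95% interval of limma's estimate, in black where adjusted p over all probes was under 0.05. Both Adam15 probes and Adam19 probe A_52_P280044 are black, while the 3 Adam19 probes are spread from -1.63 to -0.08.

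Adam19, or meltrin beta, sheds neuregulin and is needed for heart valve and septum formation in the mouse. It has 3 probes, and they did not read alike. Probe A_52_P280044, the brightest, read -1.60 and -1.67 in miR-23b/27b/24 cells, against 0.45 and -0.47 in vector cells. Probe A_51_P267447 read -1.29 and -1.12 in miR-23b/27b/24 cells, against 0.20 and -0.49 in vector cells. On these probes both miR-23b/27b/24 arrays lay below both vector arrays, and the vector arrays stood 0.91 and 0.69 apart. Probe A_52_P396459 read -0.08 and 0.02 in miR-23b/27b/24 cells, against 0.13 and -0.04 in vector cells, with the groups overlapping at the level of the reference mix.

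By the brightest probe Adam19 fell by 1.63 on the log2 scale, with an SE of 0.32 (n = 2 arrays per group, 95% interval -2.45 to -0.81), a 3.09-fold difference (limma adjusted p = 0.0458). Probe A_51_P267447 gave -1.06 ± 0.25, not called over all probes (limma adjusted p = 0.065), and was not well above background on miR-23b/27b/24 replicate 1. Probe A_52_P396459 gave -0.08 ± 0.14 (95% interval -0.42 to 0.27, limma adjusted p = 0.768). In a fit of the difference between probes of the same gene, added after the values were seen, the change on A_52_P396459 minus that on A_52_P280044 was 1.55 ± 0.27 (SE, 95% interval 0.87 to 2.24, limma adjusted p = 0.0466). Of all 9563 such probe pairs, 4.87% were called. This difference was called in 3 of 13 alternative settings and lay between 1.18 and 2.04 in them, with an adjusted p between 0.0276 and 0.286. It was not called without miR-23b/27b/24 replicate 1 (1.64, limma adjusted p = 0.286) or replicate 2 of that group (1.47, limma adjusted p = 0.233).

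The probes lie in transcript order along chromosome 11, on the plus strand in mm7 coordinates. A_52_P396459 is at chr11:46095616-46095675, A_51_P267447 at chr11:46102796-46102855 and A_52_P280044 at chr11:46103663-46103722. All 3 are filed under the same RefSeq transcript. Read in 3 frames, A_52_P396459 had no stop codon in any frame, whereas the pair of downstream probes had a stop in each. At least 1 frame free of stops was found in 13 of the 17 protease probes and in 78.3% of all probes. The upstream probe is shown because it is the one that did not follow the others.

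Adam19 probe A_52_P396459: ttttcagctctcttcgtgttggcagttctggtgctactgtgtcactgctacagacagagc

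**Figure D3:**
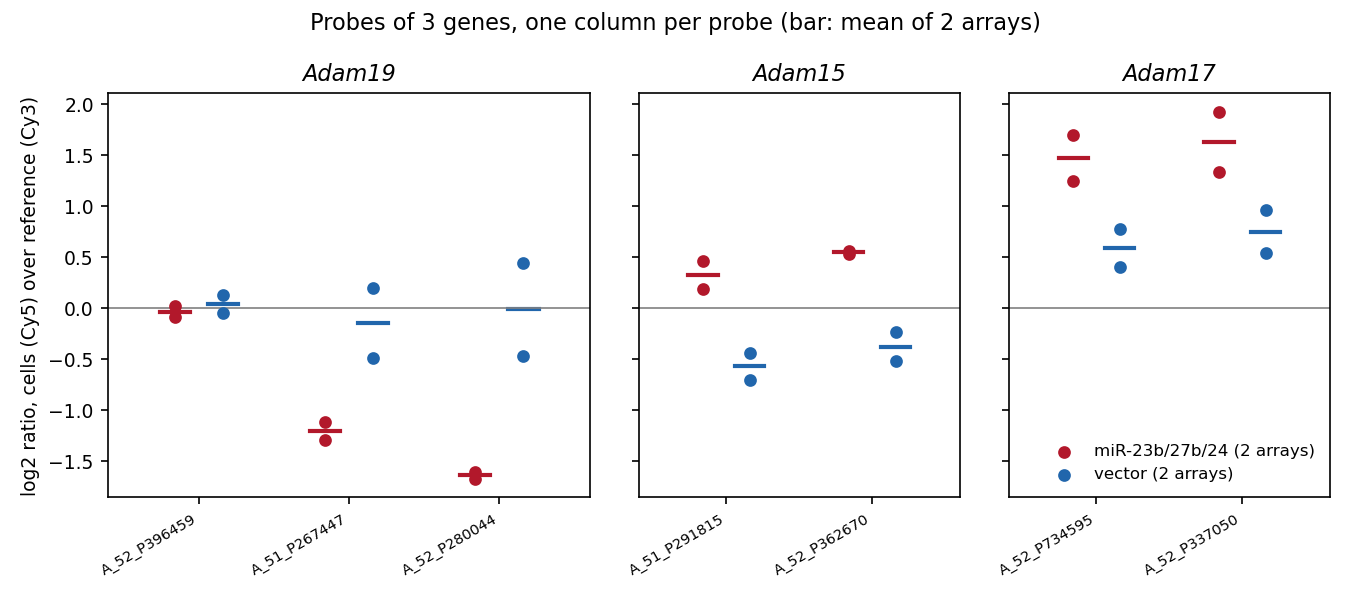
Log2 ratio of cells over reference for each probe of Adam19, Adam15 and Adam17, with a point per array, a bar at the mean of 2 arrays, miR-23b/27b/24 in red and vector in blue. The probes of Adam15 and of Adam17 show the same separation, while for Adam19 the groups part on 2 probes and overlap on the other one.

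The call of Adam19 also depended on how its probes were combined. With the mean of the 3 probes the difference was -0.92 and was not called (limma adjusted p = 0.0689). Adam19 was called in 10 of 16 alternative settings, with the difference between -2.18 and -0.92. It was lost without miR-23b/27b/24 replicate 1 (-1.67, limma adjusted p = 0.227) and without miR-23b/27b/24 replicate 2 (-1.59, limma adjusted p = 0.194).

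Adam8 is known from myeloid cells and from several tumours, and its protein cuts adhesion molecules. It was below the reference mix on every array, at -2.08 and -2.88 in miR-23b/27b/24 cells, against -1.32 and -1.26 in vector cells. The groups did not overlap, and the spread came from the miR-23b/27b/24 arrays, which stood 0.80 apart, against 0.05 for the vector arrays. The difference was -1.19 ± 0.28 (95% interval -1.93 to -0.46 with the SE from n = 2 a group), a ratio of 2.29, and did not pass (limma adjusted p = 0.0694). It was called in 0 of 16 alternative settings, where it lay between -1.59 and -0.79 with an adjusted p between 0.0634 and 0.168. Both ends came from leaving out 1 array, -1.59 without miR-23b/27b/24 replicate 1 and -0.79 without miR-23b/27b/24 replicate 2. Among 7 measured leukocyte markers, 1 fell, or 14.3%, beside 4.66% of all genes. This was Cd68, a lysosomal protein of macrophages that other cells also make. It read -1.90 and -2.08 in miR-23b/27b/24 cells, against -0.25 and -0.37 in vector cells, a difference of -1.68 (limma adjusted p = 0.00677). Its part in the Adam8 values was not tested.

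The secreted Adamts1, Adamts4 and Adamts5 all cut aggrecan and versican. None of them passed the test, by limma's adjusted p, although unadjusted p was under 0.05 for Adamts5. Adamts5 was the lowest of the 9 proteases against the reference mix, at -3.59 and -3.76 in miR-23b/27b/24 cells, against -3.32 and -3.11 in vector cells. The groups lay apart by less than 1 log2 unit, and the difference was -0.46 ± 0.14 (95% interval -0.84 to -0.09 with the SE from n = 2 a group, limma adjusted p = 0.119). With every local background as measured, it was -1.07 (limma adjusted p = 0.113). A second Adamts5 probe was not well above background on any array.

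Adamts1 also binds and restrains vascular endothelial growth factor. By its brighter probe it read -0.68 and -0.63 in miR-23b/27b/24 cells, against -0.55 and -0.10 in vector cells, a difference of -0.33 ± 0.18 (95% interval -0.81 to 0.15 with the SE from n = 2 a group, limma adjusted p = 0.326). The groups lay apart by a small margin. Its other probe had the opposite sign, at 0.17 ± 0.15 (limma adjusted p = 0.536), and the difference between the probes was not called either (0.50, limma adjusted p = 0.234). Without vector replicate 1, the brighter probe gave -0.55 and was called (limma adjusted p = 0.0483).

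Adamts4 stood above the reference mix on every array, at 1.01 and 1.45 in miR-23b/27b/24 cells, against 1.89 and 0.72 in vector cells. The vector arrays were 1.16 apart and enclosed both miR-23b/27b/24 values, so the difference of -0.07 ± 0.42 had the widest interval of the 9 genes (95% interval -1.16 to 1.01 with the SE from n = 2 a group, limma adjusted p = 0.931). It was 0.51 without vector replicate 1 and -0.66 without vector replicate 2, called in neither case.

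In the Cy3 reference channel, after loess and scaling between arrays, the range over the 4 arrays was between 0.02 and 0.32 log2 units for the 17 protease probes. In Cy5 the brightest Adam19 probe ranged over 2.26 log2 units, the Adam8 probe over 1.67 and the brighter Adam15 probe over 1.20, against 0.15, 0.05 and 0.12 for the same probes in Cy3. For the brighter Adamts1 probe the Cy3 range was 0.22 beside a Cy5 range of 0.38, so both channels varied there.

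Ordered by the mean log2 ratio in miR-23b/27b/24 cells, the genes ran from Adam17 (1.63) through Adamts4 (1.23), Adam10 (0.98), Adam15 (0.33), Adam9 (0.08), Adamts1 (-0.65), Adam19 (-1.64) and Adam8 (-2.48) to Adamts5 (-3.68). In vector cells the order was Adamts4 (1.30), Adam10 (0.78), Adam17 (0.75), Adam9 (0.14), Adam19 (-0.01), Adamts1 (-0.32), Adam15 (-0.57), Adam8 (-1.29) and Adamts5 (-3.21). Each value is relative to the reference mix for its own probe, so the order is not one of transcript amounts. In vector cells, the arrays of neighbours overlapped from Adamts4 down to Adam15, apart from Adam17 and Adam9, whereas Adam8 and Adamts5 stood apart from every other gene. In miR-23b/27b/24 cells the array values of Adam17 and Adamts4, of Adamts4 and Adam10, and of Adam15 and Adam9 overlapped, and those of the other neighbours did not.

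**Figure D4:**
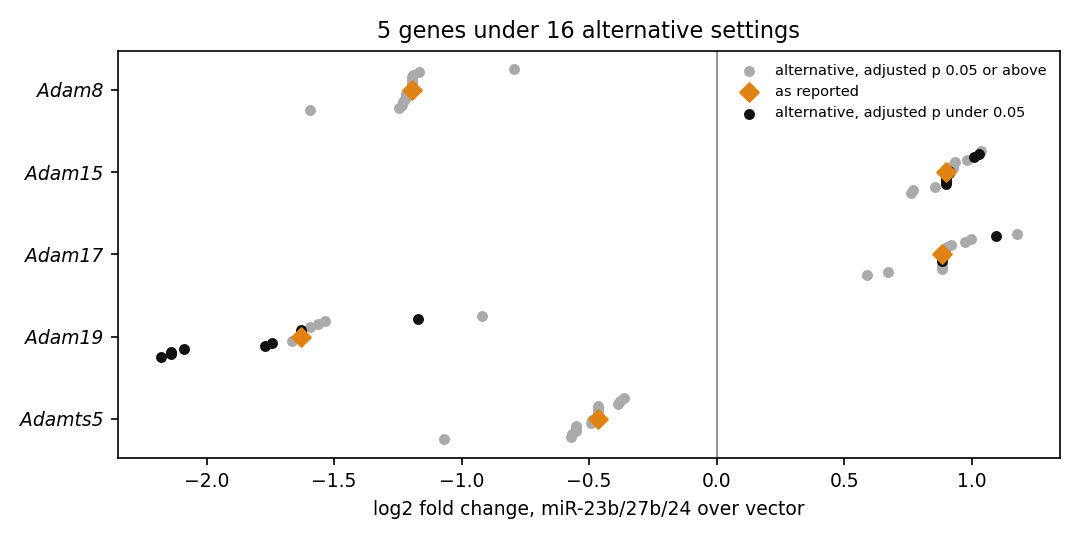
Log2 fold change of miR-23b/27b/24 over vector cells for 5 proteases under 16 alternative settings (points, black where adjusted p was under 0.05) and as reported (diamonds). No point crosses 0, and black points occur for Adam15 (8), Adam19 (10) and Adam17 (2), and for neither Adam8 nor Adamts5.

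Most of the remaining ADAM family is known from the testis or the brain. Of 27 other ADAM genes, 23 were on the array and 17 were measured. Adam1a, a gene known from the testis, rose and was the only one of the 17 that passed. It read 0.02 and -0.12 in miR-23b/27b/24 cells, against -0.88 on both vector arrays. The difference was 0.83 ± 0.12 (SE from n = 2 a group and limma adjusted p = 0.0263). With every local background as measured it was 0.33 and not called (limma adjusted p = 0.402), and leaving out miR-23b/27b/24 replicate 1 (limma adjusted p = 0.214) or 2 (limma adjusted p = 0.144) also ended the call. The median of the 17 was -0.05, and the 1 call is 5.88% of them, beside 9.43% of all genes.

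Of 22 other ADAMTS and ADAMTS-like genes, 20 were on the array and 17 were measured, of which 2 rose and 2 fell, with a median of 0.03. The calls are 23.5% of the 17, beside 9.43% of all genes. Of these 4, Papln, Adamts6 and Adamts8 passed the filter through the group where they were high alone, so their counts are no support for a change of the list. Papln, which encodes the matrix protein papilin, read 1.70 and 2.14 in miR-23b/27b/24 cells, against -0.14 and -0.01 in vector cells, where it was not well above background. In the processing used here its point estimate was at least 3.99-fold higher in miR-23b/27b/24 cells (limma adjusted p = 0.00915). Adamts6 read -0.88 on both miR-23b/27b/24 arrays, where it was not well above background, against 0.46 and 0.08 in vector cells, and was at least 2.20-fold lower (limma adjusted p = 0.0260). Such a bound is the smaller of the fold in Cy5, which is open to dye bias, against the lowest signal well above background, and the fold of the ratio. It holds for this processing alone. Over 15 alternative settings the log2 difference ran from 1.78 to 4.07 for Papln and from -3.22 to -0.92 for Adamts6, so some settings gave less than the bound.

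Adamts8, which also cuts aggrecan, read 0.12 and 0.03 in miR-23b/27b/24 cells, where it was not well above background, against 1.11 and 0.93 in vector cells, and in the processing used here was at least 1.69-fold lower (limma adjusted p = 0.0235). A second Adamts8 probe had the same sign. With every local background as measured the Adamts8 difference was -0.24, smaller than that bound, and not called (limma adjusted p = 0.487). Adamtsl3, a matrix protein with no protease domain, rose by 0.75 ± 0.13 (SE from n = 2 a group and limma adjusted p = 0.0382), but its other probe had the opposite sign at -0.15. Its call was lost with the mean of its probes (0.30, limma adjusted p = 0.204), every local background as measured (0.54, limma adjusted p = 0.0946), median centring (0.77, limma adjusted p = 0.0610) and a replicate block (limma adjusted p = 0.0559). Leaving out miR-23b/27b/24 replicate 1 ended the calls of Adamts6 (limma adjusted p = 0.179), Adamts8 (limma adjusted p = 0.165) and Adamtsl3 (limma adjusted p = 0.233). Leaving out replicate 2 of that group ended those of Adamts6 (limma adjusted p = 0.148), Adamts8 (limma adjusted p = 0.158), Adamtsl3 (limma adjusted p = 0.212) and Papln (limma adjusted p = 0.0571).

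Some ADAM proteases need partners to leave the endoplasmic reticulum, and many are activated by proprotein convertases such as furin. The 12 measured genes of this kind include the iRhoms Rhbdf1 and Rhbdf2, the C8 tetraspanins that escort Adam10, and the convertases. Of the 12, 0 were called by limma's adjusted p, although 8 had an unadjusted p under 0.05, beside 5687 of all 20515 genes. The 8 went both ways. Tspan5 (0.52), Tspan15 (0.61) and Pcsk7 (0.52), named after their values were seen, were higher, and the others were lower. The median of the 12 was -0.31. The genes with the smallest p were Pcsk6, a convertase, at -0.55 ± 0.12 (SE from n = 2 a group and limma adjusted p = 0.0619), and Tspan33, a partner of Adam10, at -0.67 ± 0.15 (SE from n = 2 a group and limma adjusted p = 0.0662).

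Inhibitors and clearance receptors likewise gave 0 calls of 7 measured by limma's adjusted p, with a median of 0.10. Unadjusted p was under 0.05 for 1 of the 7, beside 5687 of all 20515 genes. Lrp1, the endocytic receptor that removes ADAMTS proteases, had the smallest p, at -0.58 ± 0.13 (SE from n = 2 a group and limma adjusted p = 0.0608), while its other probe gave -0.06. Timp4, a tissue inhibitor of metalloproteases, differed by -0.32 ± 0.13 (limma adjusted p = 0.190). Of 6 measured subunits of gamma-secretase, the protease that cuts the stubs ADAMs leave in the membrane, 0 were called. In limma's test 2 of the 6 had an unadjusted p under 0.05, beside the same 5687 of 20515 genes. Psen2, a catalytic subunit, differed by -0.72 ± 0.21 (limma adjusted p = 0.108) and Ncstn, the substrate receptor nicastrin, by 0.40 ± 0.14 (limma adjusted p = 0.147).

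Among the membrane proteins that ADAMs release, 3 of 31 measured rose and 6 fell. Together these calls are 29% of the list, beside 9.43% of all genes, and the median was -0.28. This list holds Cdh1, which is also an epithelial marker. Notch1, the receptor primed by Adam10, read 2.51 and 3.03 in miR-23b/27b/24 cells, against 0.65 and 0.45 in vector cells, a 4.66-fold rise (limma adjusted p = 0.00947). Kitl, the ligand of Kit, read -0.07 and -0.48 in miR-23b/27b/24 cells, against -2.48 and -2.47 in vector cells, a 4.58-fold rise (limma adjusted p = 0.00678). In both genes the groups lay over 1 log2 unit apart, and a second probe of each rose as well, by 1.96 for Notch1 and 1.03 for Kitl.

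Cdh1, or E-cadherin, which Adam10 cuts in epithelia, read 1.63 and 3.02 in miR-23b/27b/24 cells, against 5.19 and 5.36 in vector cells. It fell 7.74-fold (limma adjusted p = 0.0299) and stayed above the reference mix in both groups. For this probe the Cy3 signal also differed, at 6.75 and 6.82 on the miR-23b/27b/24 arrays, against 8.40 and 8.30 on the vector arrays, in log2 units. In Cy5, scaled between arrays like Cy3, the difference was -4.52, a larger fall than in the ratio. Alcam, an adhesion molecule shed by Adam17, read -2.49 and -2.31 in miR-23b/27b/24 cells, against 0.23 and -0.06 in vector cells, and fell 5.62-fold (limma adjusted p = 0.00434), a call that held in all 16 alternative settings. The Kitl call was lost with every local background as measured (limma adjusted p = 0.0942) and that of Notch1 without miR-23b/27b/24 replicate 2 (limma adjusted p = 0.0535). The Cdh1 call was lost in 4 of 16 alternative settings, over which its difference ran from -4.54 to -2.06.

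The other called substrates, named after their values were seen, were Sdc4, a heparan sulphate proteoglycan, which rose by 1.53 (limma adjusted p = 0.0203), and 4 that fell. Of these Hbegf and Btc are ligands of the EGF receptor, at -0.99 (limma adjusted p = 0.0338) and -0.90 (limma adjusted p = 0.0408). Jag1, a Notch ligand, was at -1.58 (limma adjusted p = 0.0101) and Csf1, the macrophage growth factor, at -1.11 (limma adjusted p = 0.0361).

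Among 11 measured matrix substrates of ADAMTS proteases, the median was -0.03. Only Thbs1 passed, which fell, and this 1 call is 9.09% of the list, beside 9.43% of all genes. Thbs1, the matrix protein thrombospondin, read -0.51 and -0.16 in miR-23b/27b/24 cells, against 1.56 and 1.03 in vector cells, a difference of -1.63 (limma adjusted p = 0.0241). Its other probes gave -0.87 and -0.58 and were not called, and the mean of its probes, -1.03, was not called either (limma adjusted p = 0.0558). The call was also lost without miR-23b/27b/24 replicate 1 (limma adjusted p = 0.155) or 2 (limma adjusted p = 0.0979).

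**Figure D5:**
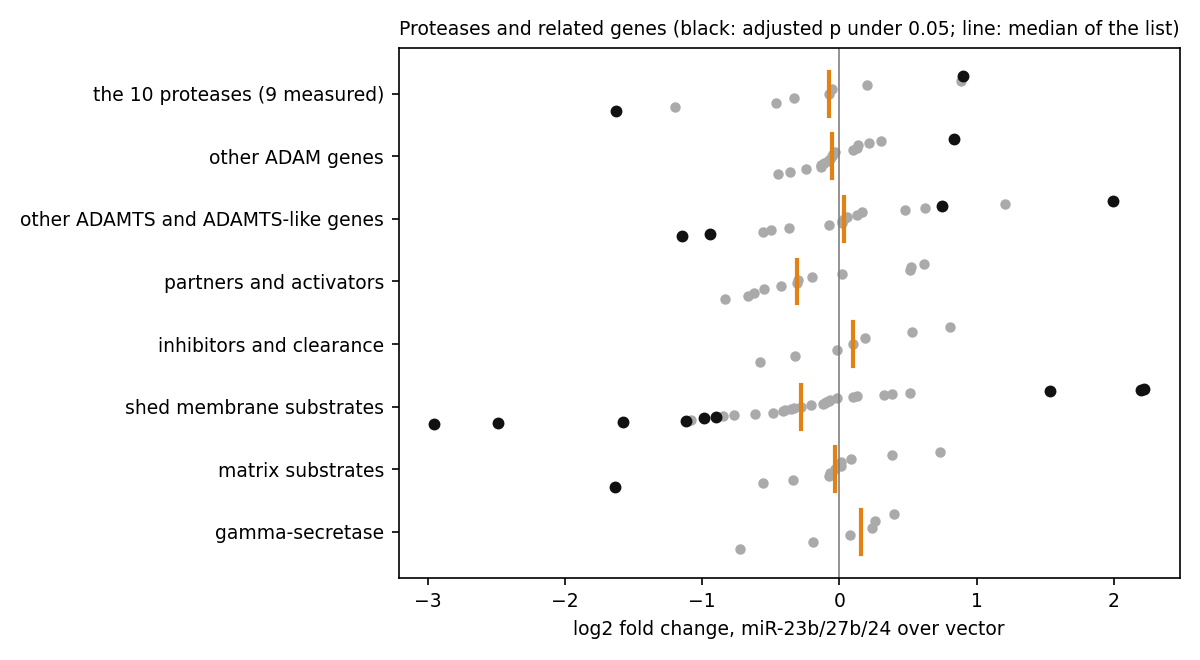
Log2 fold change of miR-23b/27b/24 over vector cells for each measured gene of the proteases and 7 related lists, black where adjusted p over all genes was under 0.05, with a line at the median of a list. The shed membrane substrates reach from -2.95 to 2.22, beyond the range of -1.63 to 0.90 of the proteases.

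Of 8 measured epithelial markers, 5 fell and 0 rose, beside 4.66% and 4.78% of all genes, with a median of -2.13. Krt8 (0.30), Krt5 (-0.01) and Krt18 (-1.40, limma adjusted p = 0.0648) were not called. Esrp1, among the 5, passed the filter through the vector group alone, so its fall is no support for a change of the list. The medians of the 8 by array were 0.0057 and -0.0047 in miR-23b/27b/24 cells, against 1.22 and 0.98 in vector cells. Of 7 fibroblast or mesenchymal markers 1 fell and 0 rose, with a median of -0.0026. The 1 that fell was Twist1, at -2.96 (limma adjusted p = 0.0404). Pdgfra was at 1.23 and was not called (limma adjusted p = 0.101). Of 3 measured endothelial markers 0 were called by limma's adjusted p, 0 had an unadjusted p under 0.05, and their median was -0.05. The part of these markers in the protease values was not tested.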

How the data were processed

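Gene expression was read on 4 two-colour Agilent whole-mouse-genome arrays on 1 slide, with no dye swap. The deposited spot intensity, local background and processed intensity came from Agilent Feature Extraction 9.5.3.1, per the file headers. The same program gave the deposited log10 ratio, Cy5 over Cy3. The authors' deposited value table holds log2 ratios centred on each probe's median, used as an alternative; its program is not stated there.

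From the mean signals, with R 4.3.3 and limma 3.58.1, background was corrected by normexp (offset 50), local backgrounds marked as outliers were set to the array's median, and loess was run within arrays with weight 0 for control spots. Cy5 and Cy3 signals given apart were rebuilt from the loess ratio and the mean intensity, the latter quantile-scaled between arrays. A probe was kept if its Cy5 signal was well above background on every array of either group (30080 of 41174), and the brightest stood for its gene. Genes were named through a RefSeq table of GRCm38.p6 (22951 probes by accession, 6659 by symbol, 3109 by synonym), and 8455 probes kept the file's name. Groups were compared by lmFit and eBayes, with 2 residual degrees of freedom and 2.83 from the prior, and Benjamini-Hochberg adjustment over all genes, or over all probes where stated. The number of arrays limits the precision, and p-values measure the spread between transfection replicates of a stable line. The script was tested on simulated data.

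All 10 proteases were named, and from each related list up to 4 called genes with the largest change, or 2 genes of smallest p where none was called, leaving out clone and predicted names. Members, lists and settings, the treatment of outlier backgrounds included, were chosen with earlier results of these data known. The 16 alternatives covered background, scaling, filter, probe choice, moderation, the deposited table, the block by replicate number and each array left out.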

Additional observations from a re-analysis of the deposited data

How the results depend on the processing

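Of the 9 measured proteases, 2 were called as reported. With median centring and with all local backgrounds as measured, 0 were called by limma, with 5 and 6 unadjusted p under 0.05. With Feature Extraction signals, its log ratio, the deposited table, no filter and the mean of a gene's probes, 1 was called in each. Leaving out 1 array gave between 0 and 4, with 0 called without either miR-23b/27b/24 array (3 and 4 unadjusted p under 0.05), 4 without vector replicate 1 and 1 without vector replicate 2. Over all genes, 1935 calls became 635 with every local background as measured, 1263 with median centring, and between 222 and 4588 with 1 array left out. In such fits the lone array takes its spread from the other group. Directions turned, with no call, for Adam9 (0.11 without vector replicate 1, 0.12 without miR-23b/27b/24 replicate 1), Adam10 (-0.059 without vector replicate 2) and Adamts4 (0.41 with every local background as measured, 0.51 without vector replicate 1, 0.15 without miR-23b/27b/24 replicate 1). With 1 array left out these genes ran from -0.22 to 0.12, from -0.059 to 0.46 and from -0.66 to 0.51. The cause was not tested.

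Deviations of same-numbered arrays correlated at 0.0464 across genes, so the numbers were not taken as pairs. With a replicate block 3 proteases and 1762 genes were called. The Adam12 probes, at background, limit what can be said of that gene.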
